A study of Mus musculus with 23 samples.

Results

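RNA from repeat elements was compared between PS19 mice and littermate controls at 4 months of age, in whole spinal cord. PS19 is a tauopathy model in which a mutant human tau is expressed from the mouse prion promoter. The PS19 animals were heterozygous for the transgene and descended from founders of the Jackson Laboratory line, and the controls were wild-type littermates. All samples of that age were taken, 10 of the 23 in the series, with 5 PS19 and 5 control animals. The other 13 were 9-month animals of the same genotypes (7 PS19 and 6 control), which enter only the last comparison. Poly(A)-selected, strand-specific libraries were made from lysate of the total cord, so every cell type of the tissue contributed. In such bulk samples, fewer cells of a type and less RNA per cell cannot be told apart. The table used here covers repeat subfamilies, so the transgene, sex genes and markers of cell types were not analysed here. The labels give neither sex nor litter. Animals were numbered 1 to 5 within each genotype in accession order, which pairs none of them, and p-values measure the spread between these samples.

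Repeats make up a large part of the mouse genome and fall into a few great classes. SINE elements (B1, B2, B4, ID and MIR) are short and borrow the machinery of LINE elements, of which the young L1Md subfamilies still move in the mouse. LTR elements are remains of endogenous retroviruses, with internal parts that carry the viral genes and long terminal repeats that carry the promoter. They include the IAP, ETn and MusD elements, which are still mobile, and MERVL, which is known from the early embryo. DNA transposons have no active copies in the mouse, so RNA assigned to them usually derives from longer transcripts such as introns and untranslated regions. Most repeats are kept silent by DNA methylation and heterochromatin, and tau pathology has been linked elsewhere to loss of that silencing. Reads of an element's own transcript and of a copy carried inside another RNA cannot be told apart in a table of subfamilies.

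The 4-month samples differed far more by title than by genotype. Animals 1 to 3 of each genotype carry titles SC255 to SC260, called the first title range here, and animals 4 and 5 carry SC261 to SC266, the second. Total repeat signal, in the authors' normalized reads, ran from 1494944 to 2459738 in the first range and from 471178 to 779835 in the second. The ranges were distinguished after these totals had been seen, and the labels do not say what the numbers stand for. Both hold both genotypes, 3 of each in the first and 2 of each in the second. Every genotype comparison therefore carried a term for the title range. That term lowered the median residual SD of a subfamily on the log2 scale from 1.15 to 0.44. Repeat reads per sample ranged from 529522 to 2168280. Of the 1135 subfamilies in the table, the 987 with a mean of at least 10 normalized reads over the 10 samples were tested, and 148 were not.

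**Figure D1:**
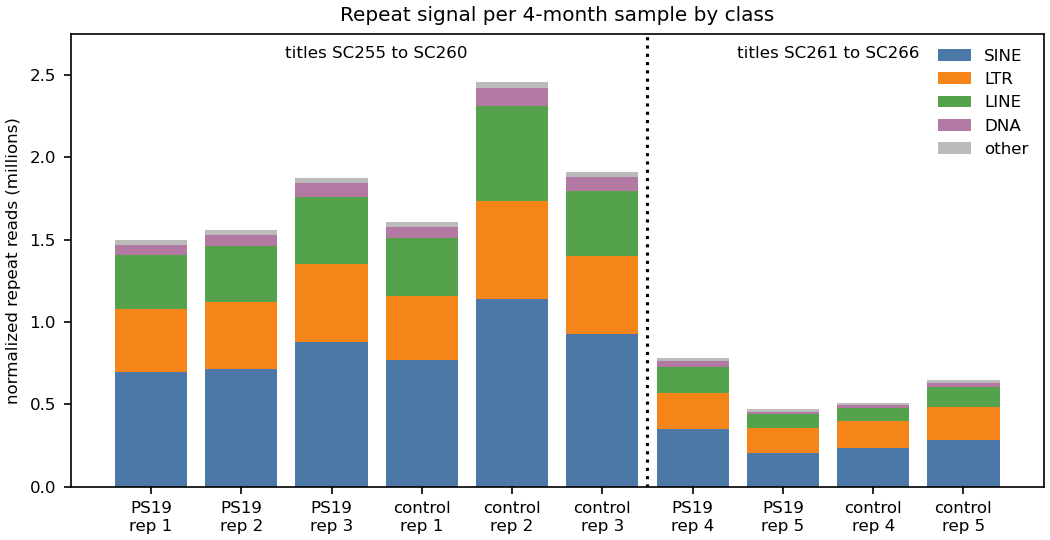
Total repeat signal of each 4-month sample in the authors' normalized reads, stacked by repeat class, with a dotted line between the title ranges. All 6 samples of the first range stand above all 4 of the second, and PS19 and control samples overlap within both.

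Within a title range the genotypes overlapped in total repeat signal. PS19 replicates 1 to 5 had 1494944, 1557009, 1874021, 779835 and 471178 normalized reads, and control replicates 1 to 5 had 1604874, 2459738, 1908426, 507549 and 646328. The highest sample was a control of the first range and the lowest a PS19 animal of the second. In the first range the mean was 1641992 normalized reads in PS19 (n = 3) and 1991013 in control (n = 3). In the second range it was 625507 in PS19 and 576939 in control (n = 2 each), so the order of the means was the opposite there. The fitted log2 difference was -0.12, with a two-sided exact permutation p of 0.5 from the 120 ways to assign genotype within the ranges (adjusted p = 0.933 over 24 sums). The smallest p that design allows is 0.0167, so after adjustment only several low values together could have passed. The class sums gave the same picture, with log2 differences of -0.16 for SINE, -0.12 for LTR, -0.06 for LINE elements and -0.07 for DNA transposons. Their exact permutation p-values were 0.417, 0.483, 0.833 and 0.783. None of the 24 sums over classes and families had an unadjusted p under 0.05.

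The make-up of the repeat signal was also close between the genotypes. SINE elements took 45.7% ± 1.47 in PS19 and 46.7% ± 1.78 in control animals (mean ± SD over 5), and LTR elements 27.3% ± 2.70 in PS19 and 27.3% ± 4.06 in control. LINE elements took 20.7% ± 1.6 in PS19 and 20.0% ± 3.0 in control, and DNA transposons 4.16% ± 0.359 in PS19 and 4.04% ± 0.596 in control. Of the 23 shares, none passed after adjustment (lowest adjusted p = 0.858, exact permutation) and none had an unadjusted p under 0.05. Control replicate 4 had the lowest LINE share of the 10 samples, 15.6% against 18.0% to 23.3% in the others. It also had the lowest share of DNA transposons, 3.19% against 3.6% to 4.58%.

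No repeat subfamily passed the test between PS19 and control at 4 months. With limma on log2(normalized reads + 1), 0 of 987 had an adjusted p under 0.05 (0 percent), and 8 had an unadjusted p under 0.05 (0.811 percent of those tested), 3 higher and 5 lower in PS19. With edgeR and DESeq2 on the whole reads behind the values, 0 passed as well, with 6 and 7 at an unadjusted p under 0.05. The number at an unadjusted p under 0.05 ran from 3 without PS19 replicate 5 to 65 without PS19 replicate 4, and was 103 with total repeat signal as a covariate and 124 with sample weights. The lowest limma adjusted p was 0.994. Of the fitted log2 fold changes, 38.0 percent were positive and their median was -0.08, and single values are to be read against that shift. Its sign was not stable, since the median was -0.24 without PS19 replicate 4, 0.05 without control replicate 2, 0.01 without PS19 replicate 5 and 0.07 with total repeat signal as a covariate.

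How large a change these samples could still hold is given by the intervals. The median 95% interval of a subfamily reached 0.58 to each side of its log2 fold change. For 772 of 987 subfamilies (78.2 percent) it lay wholly inside a 2-fold change in either direction. The intervals are not adjusted for the number of subfamilies, and they describe the fitted values, not which changes the test would have detected. Adding 1 before taking logs makes the fold changes of rare subfamilies too small.

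The subfamily with the smallest p was lower in PS19 and is IAP1-MM_I-int, an internal part of the intracisternal A particle, a mouse retroelement of the ERVK family. PS19 replicates 1 to 5 stood at 134, 69.7, 203, 78.3 and 445 normalized reads, and control replicates 1 to 5 at 365, 231, 253, 249 and 368. In the first title range every PS19 animal lay below every control, while in the second the PS19 animals were the lowest and the highest of the 4. Its log2 fold change was -0.97 (95% interval -1.70 to -0.24), with an unadjusted p of 0.0113 and a limma adjusted p of 0.994. Over 27 alternative settings its adjusted p ran from 0.00664 to 1, and 2 of them called it. These were the fit of the first range alone (log2 fold change -1.16, adjusted p 0.0106) and limma sample weights (-1.21, 0.00664). Leaving out PS19 replicate 5 gave -1.40 with an adjusted p of 0.160, and leaving out PS19 replicate 4 gave -0.63, so the value rests on which animal of the second range is kept.

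IAPEz-int, the main internal part of the IAP elements, had opposite directions in the title ranges. PS19 replicates stood at 45795, 56431, 44981, 33636 and 26102 normalized reads in order, and controls at 31175, 44929, 41973, 34115 and 43844. In the first range every PS19 animal lay above every control, and in the second both lay below both controls. The log2 fold change over both was 0.04 (95% interval -0.43 to 0.51). In the first range it was 0.33 and in the second -0.38. Among the 22 tested IAP subfamilies 0 rose, 0 fell and 10 had a positive log2 fold change (38.0 percent of all 987 did). Their median was -0.05, beside -0.08 over all 987. The 2 title ranges gave medians of -0.21 and -0.04, against -0.28 and 0.22 for all subfamilies.

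**Figure D2:**
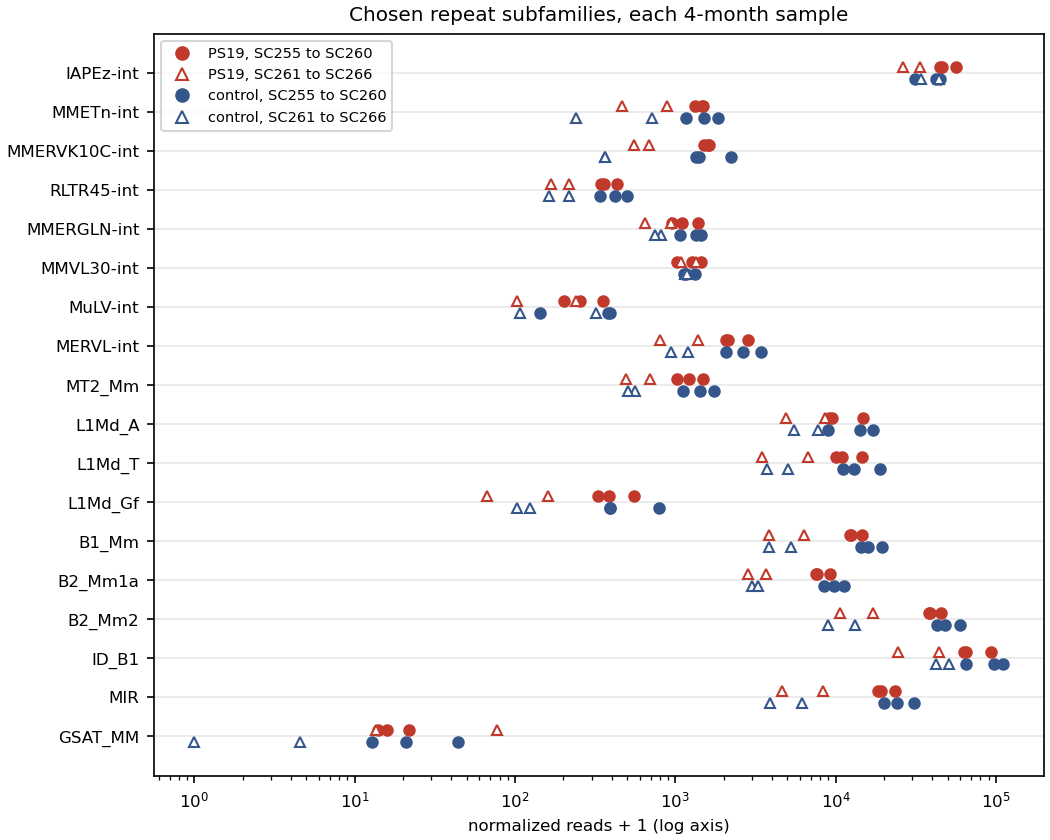
Normalized reads (plus 1, log axis) of 18 chosen subfamilies in each 4-month sample, PS19 in red and control in blue, with filled circles for titles SC255 to SC260 and open triangles for SC261 to SC266. The spread follows the title range for most of them, IAPEz-int and MMVL30-int least, and PS19 and control points overlap in each row.

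The other subfamilies lower in PS19 with the smallest p came from DNA transposons, LTR elements and repeats of no listed class. ORSL-2a, a hAT-Tip100 DNA transposon, had 6.45, 17.6, 24.2, 1.13 and 0.813 normalized reads in the PS19 animals and 17.6, 39.7, 19.3, 12.5 and 5.90 in the controls, a log2 fold change of -1.34 (95% interval -2.41 to -0.27). In the second range both PS19 animals lay under both controls, and in the first the groups overlapped. LTR107_Mam, an old LTR, stood at 18.5, 14.9, 16.2, 2.27 and 0 in PS19 and 19.9, 31.8, 30.0, 2.88 and 9.44 in control. It was 1 of 3 subfamilies lower in PS19 without overlap in both title ranges (0.304 percent of those tested), and its log2 fold change was -1.13 (95% interval -2.18 to -0.07). LTR16D, an ERVL LTR, had a log2 fold change of -0.87 (95% interval -1.68 to -0.06), UCON27, listed with no class, -1.07 (95% interval -2.17 to 0.03), and RLTR8, an ERVK LTR, -0.56 (95% interval -1.11 to -0.01). In RLTR8 the controls of the second range stood at 347 and 184.1, with the highest of all 10 samples in control replicate 4, and the log2 fold change was -0.34 without that animal and -0.35 without PS19 replicate 5.

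The 2 other subfamilies lower in PS19 without overlap in both ranges were better measured. LTR50, an ERVL LTR, stood at 165, 133, 164, 103 and 75.6 in the PS19 animals and 172, 244, 186, 104 and 124 in the controls. Its log2 fold change was -0.37 (95% interval -0.87 to 0.13), and it was -0.37 and -0.36 in the first and second range. This separation was not kept in both ranges after scaling relative to the other repeats, described below. RLTR20D, an ERVK LTR, stood at 233, 228, 231, 111 and 111 in PS19 and 249, 413, 271, 139.9 and 125 in control, a log2 fold change of -0.34 (95% interval -0.82 to 0.15). The gap was as small as 103 against 104 in LTR50 (PS19 and control replicate 4), while PS19 replicate 2 at 133 stood farther below the lowest control of its range, at 172. Their unadjusted p-values were 0.14 and 0.164 (limma, adjusted p = 0.994 for both). By size of change at a mean of at least 50, the lowest were IAP1-MM_I-int, 7SK, RLTR8 and RLTR43C. 7SK, repeats derived from the small nuclear RNA that holds back transcript elongation, was at 169 ± 87.1 normalized reads in PS19 and 250.2 ± 136 in the controls (SD, 5 animals each), a log2 fold change of -0.57 (95% interval -1.19 to 0.06). RLTR43C, an ERVK LTR, was at 42.4 ± 21.9 normalized reads in PS19 and 61.4 ± 32.3 in the controls (SD, 5 animals each), a log2 fold change of -0.52 (95% interval -1.15 to 0.12).

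Among subfamilies higher in PS19, L1ME3G, an old mammalian L1, had the smallest p. It stood at 2354, 2302, 2167, 1114 and 752 normalized reads in PS19 replicates 1 to 5 and at 2463, 2856, 1971, 125 and 451 in the controls. The groups overlapped in the first range, where the log2 fold change was -0.08, and were apart in the second, where it was 1.94. The fit over both gave 0.73 (95% interval 0.04 to 1.41), with an unadjusted p of 0.0379 (limma adjusted p 0.994). Without control replicate 4, the lowest sample, it was 0.26, and without PS19 replicate 4 it was 0.46.

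RLTR41A2, an ERV1 LTR, showed the same split. It had 119, 119.8, 125, 48.8 and 34.9 normalized reads in PS19 and 109, 171, 106, 13.4 and 8.26 in control, with a log2 fold change of 0.72 (95% interval 0.02 to 1.42), -0.05 in the first range and 1.87 in the second. It was 0.44 without control replicate 5 and 0.47 without PS19 replicate 4. LTR109A2, an ERV1 LTR, was the 1 subfamily higher in PS19 without overlap in both ranges (0.101 percent of those tested). It had few reads, 21.0, 18.6, 24.2, 22.7 and 1.63 in PS19 and 16, 12.5, 16.1, 0 and 1.18 in control, and a log2 fold change of 1.26 (95% interval 0.05 to 2.47), which was 0.60 without PS19 replicate 4. Charlie4 and Charlie15b, hAT-Charlie DNA transposons, had the largest changes at a mean of at least 50, with log2 fold changes of 0.77 (95% interval -0.08 to 1.63) and 0.74 (95% interval -0.26 to 1.74). Both were lowest in control replicate 4, at 4.79 and 0.959 normalized reads, and without that animal the values were 0.25 and 0.06. Without PS19 replicate 4 they were 0.39 and 0.31. MER125, a DNA transposon (log2 fold change 1.09, 95% interval -0.07 to 2.25), and UCON10, listed with no class (log2 fold change 1.14, 95% interval -0.08 to 2.36), were at 0 in both second-range controls and at 2.44 to 10.2 in the PS19 animals there. GSAT_MM, the major satellite of mouse pericentromeres, had 12.9, 14.9, 20.8, 12.5 and 76.4 normalized reads in PS19 and 19.9, 43.1, 11.8, 0 and 3.54 in control, a log2 fold change of 1.31 (95% interval -0.10 to 2.72). The highest sample was PS19 replicate 5 and the lowest control replicate 4. Without the first the value was 0.52, and without the second 0.57.

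Because total repeat signal varied between animals of a genotype, the subfamilies were also compared relative to the other repeats, after TMM scaling over the 987. That lowered the median residual SD to 0.27 and the median reach of a 95% interval to 0.37 (log2). Again 0 of 987 passed in limma (0 percent), with a lowest adjusted p of 0.825, and 0 passed in edgeR and DESeq2. At an unadjusted p under 0.05 there were 44 (4.46 percent), 34 higher (3.44 percent) and 10 lower (1.01 percent) in PS19, while edgeR gave 30 and DESeq2 39. The limma number ran from 22 without PS19 replicate 5 to 58 without control replicate 5. The share of positive log2 fold changes went from 38.0 percent on the deposited scale to 56.6 percent, and the median from -0.08 to 0.03. For 806 subfamilies the 95% interval lay inside a 2-fold change, and for 555 inside a 1.5-fold change.

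On that scale the smallest p belonged to RLTR41, an ERV1 LTR, at 139, 137, 143, 148 and 127 in PS19 replicates 1 to 5 and 157, 181.001, 154.4, 207 and 199 in control replicates 1 to 5 (scaled reads). Every PS19 animal lay below every control of its title range, although the log2 fold change was small, -0.36 (95% interval -0.61 to -0.11), with an unadjusted p of 0.00795 (limma adjusted p 0.825). MMERVK10C-int, the internal part of a young ERVK retrovirus, came next, with scaled reads of 1156, 1029, 909, 1069 and 1513 in PS19 replicates 1 to 5 and 877, 917, 785, 997 and 735 in control replicates 1 to 5. PS19 was higher in the second range without overlap, while in the first PS19 replicate 3 lay below control replicate 2. Its log2 fold change was 0.38 (95% interval 0.11 to 0.66). RLTR1D2_MM, an ERV1 LTR, had a log2 fold change of 0.41 (95% interval 0.11 to 0.72), and its groups were apart in the first range and overlapped in the second. Each of these 3 had an adjusted p of 0.825, and none can be called changed.

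After that scaling, 10 subfamilies were higher (1.01 percent) and 6 lower (0.608 percent) in PS19 without overlap in both title ranges. Those higher included, with their log2 fold changes, RLTR41A2 (0.84, 95% interval 0.19 to 1.48), MERX, a TcMar-Tigger DNA transposon (0.86, 95% interval 0.15 to 1.57), LTR108a_Mam, an ERVL LTR (0.46, 95% interval 0.08 to 0.84), MLT1G, a MaLR element (0.32, 95% interval 0.05 to 0.58), RLTR33, an ERVK LTR (0.24, 95% interval 0.03 to 0.44), and LTR109A2 (1.62, 95% interval 0.21 to 3.02). The 6 lower were RLTR41, RLTR20C2_MM, LTR16B2, LTR16D, RLTR20A and MLTR18A_MM, whose log2 fold changes were -0.36, -0.30, -0.36, -0.82, -0.30 and -0.18 in that order. The 95% intervals excluded 0 for RLTR41, RLTR20C2_MM (-0.55 to -0.05) and LTR16B2 (-0.67 to -0.04). They included 0 for LTR16D (-1.69 to 0.04), RLTR20A (-0.65 to 0.04) and MLTR18A_MM (-0.48 to 0.12). Each subfamily named here, higher or lower, had a limma adjusted p of 0.825, and none can be called changed. RLTR20C2_MM, an ERVK LTR, shows the size of such a separation, with scaled reads of 506, 517, 485, 582 and 420.2 in PS19 replicates 1 to 5 and 561, 530.4, 555, 793 and 668 in control replicates 1 to 5. MER119, a hAT-Charlie DNA transposon, was among those with the smallest p, with a log2 fold change of -0.34 (95% interval -0.63 to -0.05). Its groups overlapped in the first range, and PS19 was lower without overlap in the second. LTR107_Mam, LTR50 and RLTR20D, separated in both ranges on the deposited scale, were no longer so after scaling. LTR50 was then at -0.08 in the first range and -0.55 in the second, and RLTR20D at -0.10 and -0.44.

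The title ranges hold different animals and so give separate readings of the genotype difference. On the deposited scale the median log2 fold change was -0.28 in the first range and 0.22 in the second, and 285 of 987 subfamilies (28.9 percent) had the same sign in both. Scaled within repeats the medians were 0.02 and 0.03, and 506 (51.3 percent) had the same sign. Across the 987 subfamilies, which share the libraries of each range and often sequence, the log2 fold changes of the ranges were nearly unrelated on the deposited scale (Pearson 0.0722, Spearman 0.041, n = 987). Scaled within repeats these values were 0.0665 and 0.0381. The 593 subfamilies with a mean of at least 100 normalized reads gave Pearson correlations of 0.0593 and 0.0589.

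**Figure D3:**
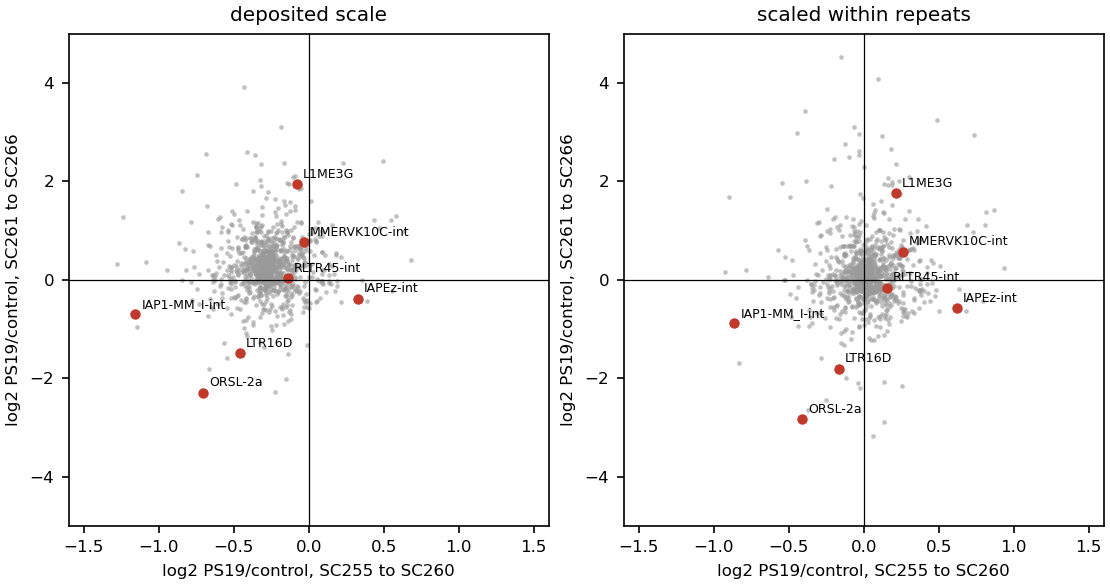
Log2 fold change of PS19 over control in the first title range (horizontal axis, 3 animals a genotype) against the second (vertical axis, 2 a genotype), 1 point for each of 987 subfamilies, on both scales. The cloud is centred left of and above 0 on the deposited scale and near 0 after scaling within repeats, with no slope that carries a change from one range to the other.

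Whether the genotype difference itself differed between the ranges was tested as an interaction. In limma 0 of 987 passed (0 percent), and 63 had an unadjusted p under 0.05 (6.38 percent), 62 of them (6.28 percent) with the higher PS19 effect in the second range. The median interaction over all 987 was 0.51 on the deposited scale, so the direction goes with a general shift. After TMM scaling within repeats the median was 0.04 and 0 of 987 passed (lowest limma adjusted p 0.0894). There 122 of 987 had an unadjusted p under 0.05, more than the 63 before scaling, so the number did not fall with the shift. On the deposited scale the lowest limma adjusted p was 0.164, shared by GSAT_MM and Chap1_Mam. The PS19 effect of GSAT_MM was 4.35 higher (log2) in the second range there, and edgeR called it (1 of 987). Single second-range animals weigh heavily here, since each is 1 of 2 and leaving it out leaves 1 of its genotype there. On the deposited scale the median interaction was 0.96 without PS19 replicate 5 and 0.73 without control replicate 5. It was 0.25 without control replicate 4 and 0.10 without PS19 replicate 4. Leaving out control replicate 3, an animal of the first range, gave 1 call.

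By group, none of the lists of related subfamilies held a called member on either scale. Among the ERVK elements tested, the longest list, 98 had a positive log2 fold change on the deposited scale, with a median of -0.08, and after scaling within repeats 144 were positive, with a median of 0.02 and 11 at an unadjusted p under 0.05. ERV1 elements had 41 of 107 positive and a scaled median of 0.03, and ERVL elements 34 of 100 and 0.00. The 96 MaLR elements, a group without viral envelope genes, had 18 positive on the deposited scale, 37 after scaling and a scaled median of -0.02. Their positive share was below that of all subfamilies on both scales. For all 987 the scaled median was 0.03, and the scaled medians of the groups just named lay near it.

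The ETn and MusD elements, ERVK members of which ETn has lost its coding genes and MusD kept them, had the highest median of the lists on both scales. Of 5 tested, 4 were positive after scaling (56.6 percent of all subfamilies were) and 2 had an unadjusted p under 0.05 (4.46 percent of all). The scaled median was 0.32. MMETn-int stood at 1479.9, 1470.2, 1333, 884 and 467 normalized reads in PS19 and 1511, 1843, 1162, 239.6 and 718 in control, with a log2 fold change of 0.22 (95% interval -0.34 to 0.78). Its lowest sample was control replicate 4, and without that animal its log2 fold change and the deposited median of the list both turned to -0.09, beside -0.20 for all subfamilies. The scaled median of the 5 was 0.11 and that of all subfamilies -0.01 without it. MERVL-int, the internal part of MERVL, stood at 1848 ± 776 normalized reads in PS19 and 2052 ± 1022 in the controls (SD, 5 animals each), and MT2_Mm, its LTR, at 983 ± 397 normalized reads in PS19 and 1067 ± 537 in the controls (SD, 5 animals each). Their log2 fold changes were -0.12 (95% interval -0.58 to 0.35) and -0.06 (95% interval -0.51 to 0.40). None of the 8 MERVL and MT2 elements was positive on the deposited scale (38.0 percent of all subfamilies were). After scaling 3 were (56.6 percent of all).

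The MuLV-like internal parts, gammaretroviral ERV1 elements related to murine leukemia virus, had 2 of 8 positive on the deposited scale (38.0 percent of all subfamilies were). After scaling 3 of 8 were positive (56.6 percent of all were), with a scaled median of -0.02. MuLV-int varied more than 2-fold between controls of the same range, with 352, 254, 202, 102 and 241 in PS19 and 388, 143, 379.9, 106 and 317 in control. MMVL30-int, the VL30 retroelement, was among the steadiest, at 1229 ± 174 normalized reads in PS19 and 1191 ± 81.8 in the controls (SD, 5 animals each), with the title ranges close together and a log2 fold change of 0.04 (95% interval -0.39 to 0.46).

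For SINE and young LINE elements the values were slightly below 0 on the deposited scale and near 0 after scaling, and none passed. Of the 16 B1 elements none was positive on the deposited scale (38.0 percent of all subfamilies were), with a median of -0.10. After scaling 8 were positive (56.6 percent of all were), with a median of 0.00. B1_Mm stood at 9909.9 ± 4587 normalized reads in PS19 and 11742 ± 6818 in the controls (SD, 5 animals each), a scaled log2 fold change of -0.04 (95% interval -0.15 to 0.07). B2_Mm2, a B2 element, had a scaled value of 0.05 (95% interval -0.06 to 0.16), and B2_Mm1a -0.05 (95% interval -0.25 to 0.16). MIR, an old SINE, had 0.07 (95% interval -0.05 to 0.18). ID_B1, a B4-family element, had -0.28 (95% interval -0.61 to 0.05), and its scaled reads were 42733, 45648, 54066, 140855 and 85379 in control replicates 1 to 5, highest in control replicate 4. The 6 L1Md subfamilies had a scaled median of -0.03, with -0.06 (95% interval -0.26 to 0.15) for L1Md_A, 0.01 (95% interval -0.11 to 0.13) for L1Md_T and -0.10 (95% interval -0.48 to 0.27) for L1Md_Gf. The intervals of B1_Mm, B2_Mm2, MIR and L1Md_T were among the narrowest here, and each lay inside a 1.5-fold change.

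Among DNA transposons and old LINE elements 0 passed, and their medians were above 0 in the second range. The 175 tested DNA transposons had a scaled median of 0.08, with 0.00 in the first range and 0.22 in the second. Of these 175, 11 had an unadjusted p under 0.05, beside 44 of all 987 subfamilies (4.46 percent). TcMar-Tigger elements were at 0.14 and hAT-Charlie elements at 0.08. The 128 L1 subfamilies, most of them old, were at 0.08, with 0.02 and 0.20 in the ranges. Control replicate 4, with the low LINE and DNA transposon shares given above, moved with this. Without it the scaled medians were -0.02 for DNA transposons, -0.03 for TcMar-Tigger, 0.00 for hAT-Charlie and -0.01 for L1 elements. Of 8 satellite repeats 4 were tested, with a scaled median of 0.15, and SYNREP_MM was among those under the minimum.

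**Figure D4:**
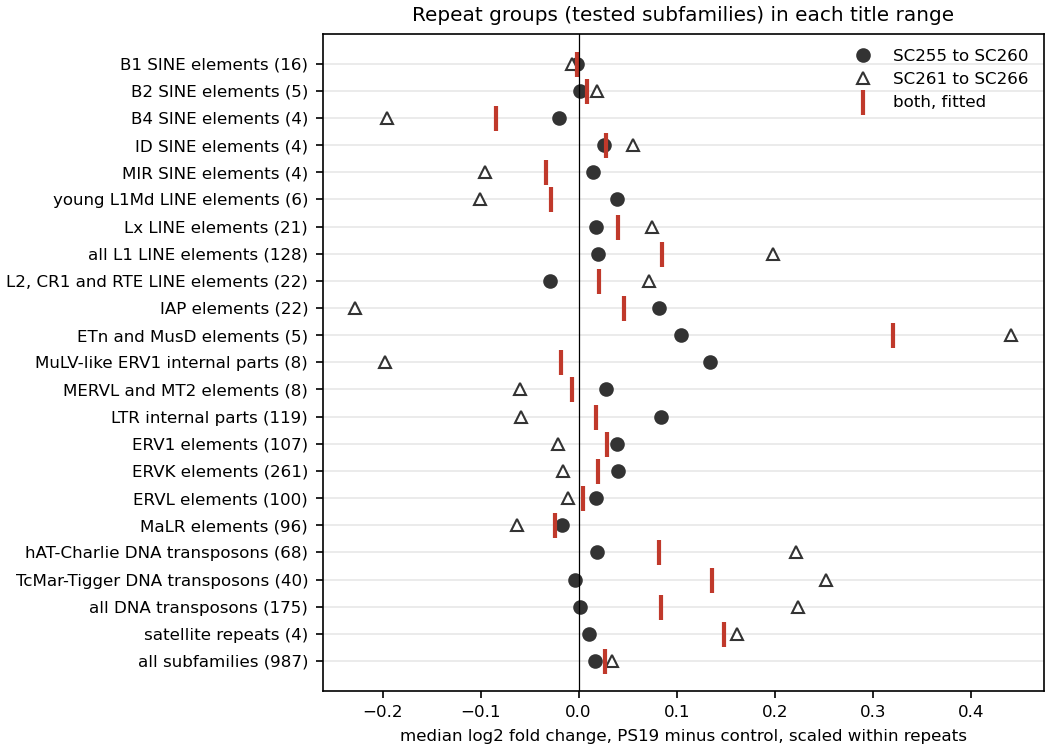
Median log2 fold change (PS19 minus control, scaled within repeats) of each repeat group, with the number of tested subfamilies in brackets, in the first title range (filled circles), the second (open triangles) and the fit of both (red bars). In the first range the medians stay between -0.05 and 0.13, and the groups that lie far from it in the second, such as TcMar-Tigger and IAP elements, do so in opposite directions.

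The last comparison set the 4-month values beside those of 9 months, where other animals were used. In a limma fit of the 9-month samples alone, 28 of 920 subfamilies were higher in PS19 (3.04 percent) and 3 lower (0.326 percent). All 28 were tested at 4 months, where 0 passed on either scale, and on the deposited scale 0 had an unadjusted p under 0.05 and 8 were positive (38.0 percent of all subfamilies were). After scaling 1 had an unadjusted p under 0.05 and 14 were positive (56.6 percent of all were). Their median log2 fold change was 0.72 at 9 months and -0.10 at 4 months, or 0.00 at 4 months scaled within repeats. The fit of the 9-month samples alone was on the deposited scale only. For 23 of the 28 the 95% interval at 4 months excluded the value estimated at 9 months. That count leaves out the error of the 9-month estimates. In the test of the difference between the ages, given below, 2 of the 28 passed. Of the 3 lower at 9 months, 2 were tested at 4 months, and neither passed. LTR50 was 1 of the 3 subfamilies lower at 4 months without overlap in both title ranges on the deposited scale, but not after scaling. It was -0.55 at 9 months (limma adjusted p 0.0144) and -0.37 at 4 months. The difference between the ages for LTR50 had an unadjusted p of 0.446 (limma adjusted p 0.806). RMER17C2, an ERVK LTR, was -0.51 at 9 months and 0.00 at 4 months. The 9-month values were picked for their size, which favors such a difference.

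Of these, RLTR45-int, an ERVK internal part, had the largest change at 9 months, a log2 fold change of 1.89. Its mean there was 268 normalized reads in PS19 and 66.0 in control, against 304 and 327 at 4 months. At 4 months it stood at 344, 433, 358, 217 and 167 normalized reads in PS19 replicates 1 to 5 and at 339.9, 499, 421, 161 and 216 in the controls. The groups overlapped in both ranges, and the log2 fold change was -0.07 (95% interval -0.54 to 0.40). MMERGLN-int, an ERV1 internal part, had 949, 1095, 1389, 942 and 647 in PS19 and 1067, 1446, 1341, 807 and 746 in control, again with overlap, and a log2 fold change of -0.10 (95% interval -0.54 to 0.34) against 1.17 at 9 months. Its means were 341 in PS19 and 158 in control at 9 months, against 1004 and 1081 at 4 months. In both subfamilies the 9-month PS19 mean lay below both 4-month means, which pool the title ranges. In the second range alone the RLTR45-int means were 192 in PS19 and 188 in control, below its 9-month PS19 mean. Those of MMERGLN-int were 794 and 776 there, above its 9-month PS19 mean. What lies behind the larger ratio at 9 months was not tested. For IAPEz-int the 9-month value was 0.66 and for MuLV-int 0.93, both above the 4-month intervals on the deposited scale. Scaled within repeats, the 4-month interval of MuLV-int reached 0.98 and no longer excluded its 9-month value, which was itself on the deposited scale.

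**Figure D5:**
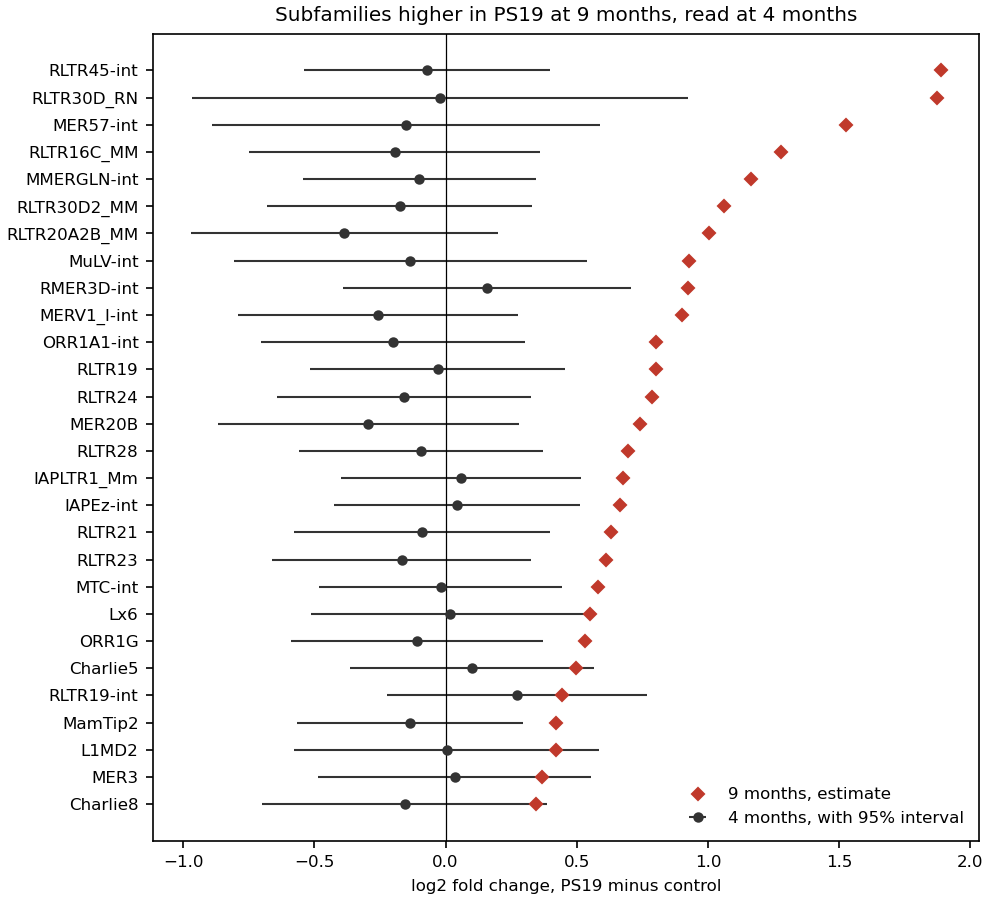
The 28 subfamilies higher in PS19 at 9 months, with the log2 fold change at 4 months and its 95% interval (black) and the estimate at 9 months (red diamonds). The 4-month values lie around 0, between -0.39 and 0.27, and 23 intervals end short of the diamond.

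The difference between the ages was tested over all 23 samples with the title range term. In limma 2 of 920 subfamilies passed (0.217 percent), both with a larger PS19 effect at 9 months, and 76 had an unadjusted p under 0.05 (8.26 percent), 75 of them in that direction (8.15 percent). The median difference over all 920 was 0.27, so that direction goes with a general shift. After TMM scaling the median was 0.02, with 93 of 920 at an unadjusted p under 0.05. On the deposited scale that number ran from 48 without PS19 replicate 5 to 230 without PS19 replicate 4. For RLTR45-int the PS19 effect was 1.96 larger (95% interval 1.24 to 2.68, limma adjusted p 0.0026), and for MMERGLN-int 1.27 larger (0.70 to 1.83, limma adjusted p 0.0254). RLTR45-int passed in each of the 10 fits that left out a 4-month animal (adjusted p 0.00152 to 0.0114). MMERGLN-int lost its call in 5, those without PS19 replicate 1, 2 or 5 or control replicate 2 or 3 (highest adjusted p 0.0986). It also lost it in edgeR (adjusted p 0.0538) and without a variance trend (0.164), and without the title range term no subfamily passed. Leaving out PS19 replicate 4 gave 8 calls and control replicate 4 gave 4. The ages share no title numbers, and age cannot be told apart from any difference in handling that goes with them.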

How the data were processed

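Poly(A) RNA of 10 spinal cords was analysed, with 13 cords of 9 months for the comparison of ages. Per the submitters' processing notes, Trimmomatic, STAR and DESeq2 were used with mouse build mm10. Not given in the sources used here are tool versions, how reads were assigned to subfamilies, the annotation of repeats, and how multi-mapping reads were handled. The deposited values are a signal per subfamily, whole reads divided by a size factor per sample. Related subfamilies can share reads. Within 0.1 percent of a read, 100 percent of values were whole multiples of 1 read. No pair of samples within a group was as alike as counting error alone would make it (lowest chi-square per degree of freedom 3.73). Every sample column was used.

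Values were fitted with limma 3.58.1 in R 4.3.3 (log2(value + 1), mean-variance trend, title range term, Benjamini-Hochberg over all tested subfamilies, threshold 0.05), as deposited and after TMM scaling. The test of 9 against 4 months used subfamilies with a mean of at least 10 over all 23 samples. Class and family sums were tested by exact permutation of genotype within title range, two-sided. edgeR 4.0.16 and DESeq2 1.42.0 on whole reads were alternatives. The fits were also run on simulated counts, drawn independently for each subfamily around its title range mean. Those counts held no shared shift in total signal within a range, so they do not test the fits under such a shift. Named subfamilies were those with the smallest p, the largest change at a mean of at least 50, no overlap in both ranges, or a place on a list by name. The members, lists and title ranges were chosen with earlier results of these data known.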

Additional observations from a re-analysis of the deposited data

Results flagged for a closer look

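Of 110 groups of 5 values examined, 3 held a sample far from the other 4. The cut-off gives about 1 in 20 for independent values of 1 normal distribution. These groups overlap and span both title ranges, so their count cannot be set against that rate. LTR109A2 was at 1.63 normalized reads in PS19 replicate 5 against 18.6 to 24.2 in the other PS19 animals. GSAT_MM was at 76.4 in PS19 replicate 5 against 12.5 to 20.8. MMVL30-int was at 1333 in control replicate 2, the sample with the highest total repeat signal, against 1127 to 1173 in the other controls. The PS19 effect differed between the ages for RLTR45-int, by 1.96 on the log2 scale, and for MMERGLN-int, by 1.27.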

How the results depend on the processing

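The count of 0 called subfamilies between PS19 and control at 4 months was recomputed on the deposited scale under 27 alternatives. It was 1 in the fit of titles SC255 to SC260 only and 1 with sample weights, both times IAP1-MM_I-int, and 0 in the others, 0 with each animal left out included. Scaled within repeats it was 0 under all 28. The interaction with the title range gave 1 call with edgeR and 0 to 67 with an animal left out. The difference between ages gave 2 calls, against 4 after TMM scaling, 1 without a variance trend, 1 with edgeR, 0 without the title range term and 1 to 8 with a 4-month animal left out. Fits without an animal of the second range leave 1 of its genotype there, assumed to vary like the others, and the estimate of the sample weights did not fully converge. The cause of these shifts was not tested. No sum over a class or family passed under any alternative tried. No called value changed sign. No paired analysis was possible because the labels give no replicate numbers and the animals were numbered in accession order. With 2 animals a genotype in the second title range, and 529522 reads in the shallowest sample, values of rare subfamilies rest on few reads.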
